A study of Drosophila melanogaster with 19 samples.

Results

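Mitochondrial ribosomal protein genes were taken as every gene of the deposited table whose symbol begins with mRpL or mRpS followed by a digit. The rule found 72 of 12810 genes, 46 named for the large subunit (mRpL) and 26 for the small subunit (mRpS), and used no measured value. RNA had been sequenced from cysts of the *Drosophila melanogaster* testis that were picked by needle, a cyst being a clone of germ cells with its somatic envelope. Wild-type stages carry no genotype in the labels, and nothing says whether libraries of a stage came from separate animals, so p-values measure only the spread between these libraries. In the order of differentiation, the labels list 2 libraries of the niche at the testis tip and 2 of gonialblasts (GB), the daughters of germline stem cells. Spermatogonia, the mitotic cells, gave 2 libraries of 4-cell cysts (S4), 2 of 8-cell cysts (S8) and 1 of 16-cell cysts (S16). Spermatocytes, which grow and prepare for meiosis, gave 3 early libraries (EC) and late sets of 3 (LC1) and 2 libraries (LC2), with no label that tells LC1 from LC2 beyond the name. The last 2 libraries came from arrested spermatocyte cysts of *always early* (*aly*) mutants, with no allele given.

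The mitochondrial ribosome translates the few proteins that the mitochondrial genome encodes, which are core subunits of the respiratory chain and of ATP synthase. Its RNAs come from the mitochondrial genome, but its proteins are encoded in the nucleus, made on cytoplasmic ribosomes and imported. The large subunit joins amino acids and the small subunit reads the messenger RNA. *aly* encodes a chromatin protein that spermatocytes need to switch on many genes of meiosis and sperm formation. Subunits are given here by symbol, although the mammalian relatives of mRpS18A and mRpS30 sit in the large subunit.

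The table held 1 RPKM value (reads scaled to gene length and library size) for each stage, the authors' mean over libraries. Reads of single libraries were inferred from these means, as whole numbers that solve them, for all 72 members and for 12804 of 12810 genes. Libraries are lettered a, b and c. They came to 20 where 19 are labelled, because the LC2 mean was built from 3 libraries, and whether 1 of the 3 is a further run of a labelled sample is not given. Between LC2 b and LC2 c the chi-square of reads per gene averaged 10.3, where sampling noise alone gives about 1, against 6.4 to 59.1 over pairs of libraries in the other stages. Libraries held 809435 to 5089577 reads. No gene exceeded 1 read per base in any library, a limit that stood between 204 RPKM in *aly* a and 1075 RPKM in S16. The *aly* gene had 33.4 and 30.4 RPKM in the libraries labelled *aly*, against 138, 109 and 63.0 RPKM in the EC libraries. Sums over 4 gut markers were 561 and 480 RPKM in the GB libraries, 10.4 and 1501 RPKM in S4, and 40.2 and 42.3 RPKM in S8. All 4 were at 0 in niche and S16, and their sum reached at most 4.29 RPKM in the EC, late and *aly* libraries. Sums over 5 muscle sheath markers were 2.03 to 3.29 RPKM over the EC libraries, against 15.3 to 182 RPKM over those of S4, S8 and S16, and their part in the results was not tested. All samples carry the cell type label germline stem cell. The germline gene *vas* stood between 21.2 RPKM in niche and 129 RPKM in EC. In LC1, LC2 and *aly* it stood between 4.62 and 14.4 RPKM. Sums over 8 germline markers, *vas* included, were 23.9 and 58.7 RPKM in niche, and 382 and 184 RPKM in GB. They were 150 to 237 RPKM over S4, S8 and S16, and 463 to 614 RPKM over EC. LC1 and LC2 libraries had 604.5 to 1531 RPKM, and those of *aly* 425 and 453 RPKM. Like *vas*, the markers nos, bam, *aly* and can stood lower in LC1 and LC2 than in EC, while fzo, dj and Mst87F stood higher.

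Most of the 72 members were among the most abundant RNAs before the spermatocyte stages, and the median member stood much lower in late spermatocytes. mRpS5 was an exception, at percentiles 56.7 to 65.9 over the stages before EC. The median member had an RPKM of 290 for the niche, 187 for GB, 203 for S4, 184.6 for S8, 287 for S16, 122 for EC, 54.5 for LC1, 75.9 for LC2 and 72.3 for *aly*. In such bulk libraries, fewer cells of a type and less RNA per cell cannot be told apart. Ranks within a single library do not depend on how libraries are scaled, while stage ranks are those of the authors' mean over libraries. Ranks, RPKM and read shares are all relative to the other genes. Genes with a read numbered 6870 to 7802 in libraries before EC and 10056 to 10918 in EC. They numbered 11261 to 12401 in LC1, LC2 and *aly*. The median of all genes was 2.41 to 5.54 RPKM over the stages before EC. It was 13.5 for EC, 21.1 for LC1, 15.6 for LC2 and 16.3 for *aly*, and the part of this change was not tested. The median percentile rank of stage values among all genes was between 94.5 and 95.6 over the 5 stages before EC, then 89.99 for EC, 67.5 for LC1, 74.5 for LC2 and 78.2 for *aly*. The number of members at or above percentile 90 was 60 to 67 over the stages before EC, then 36 for EC, 0 for LC1, 7 for LC2 and 12 for *aly*. LC1 was the stage of the lowest rank for 59 of 72 members. No member was listed at 0 in any stage.

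**Figure D1:**
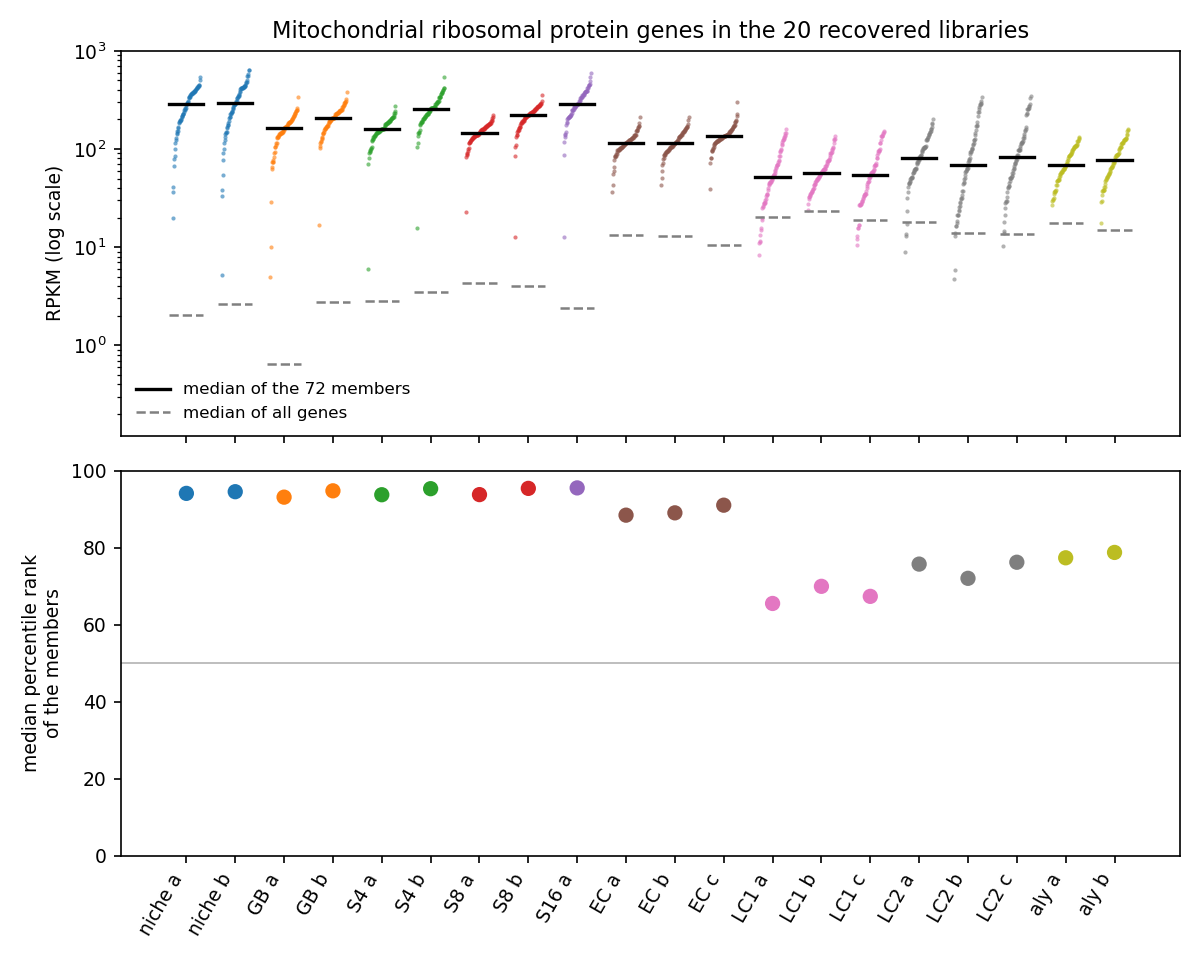
The upper panel plots RPKM on a log axis for the 72 members (points) in each of the 20 recovered libraries, with the median member (black) and the median of all genes (dashed). The lower panel plots the median percentile rank of the members in each library, which lies at 93.2 to 95.6 before EC, at 88.5 to 91.1 in EC, at 65.5 to 70.0 in LC1, at 72.1 to 76.3 in LC2 and at 77.4 and 78.8 in *aly*.

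The share of all reads that went to members was 1.17 to 1.88% over the 9 libraries before EC and 0.617 to 0.698% over the EC libraries. It was 0.251 to 0.313% over the LC1 libraries, 0.409 to 0.480% over the LC2 libraries, and 0.409 and 0.425% in the *aly* libraries. The ranges before EC, of EC and of LC1 did not overlap any other, while LC2 and *aly* overlapped each other. The median member had between 68 reads in LC2 c and 399 reads in S8 a. The least covered member of any library was mRpL33 in LC1 c, with 6 reads, so that differences of low members rest on few reads.

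mRpL12, the stalk protein that binds translation factors, had the highest mean of the 9 stages. Its level was 539 RPKM for the niche, 358 for GB, 408 for S4, 288 for S8, 596 for S16, 242 for EC, 122 for LC1, 215 for LC2 and 119 for *aly*. It was the highest member of every stage up to EC and was passed by others in LC1, LC2 and *aly*. mRpL51, mRpS16, mRpL52 and mRpS14 followed it, with means of 234.3 to 253 RPKM.

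mRpS5, whose bacterial relative sits at the messenger RNA entry of the small subunit, had the lowest mean. Its level was 20.8 RPKM for the niche, 10.9 for GB, 10.9 for S4, 17.8 for S8, 12.5 for S16, 39.5 for EC, 17.6 for LC1, 15.2 for LC2 and 32.2 for *aly*. It was the lowest member of every stage up to LC1, and the only member whose highest stage was EC. mRpL3, mRpS30, mRpL45 and mRpL38 were next lowest, with means of 73.5 to 113.9 RPKM. The annotation used here held no entry for mRpS5 or mRpS34, so their gene models could not be checked.

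**Figure D2:**
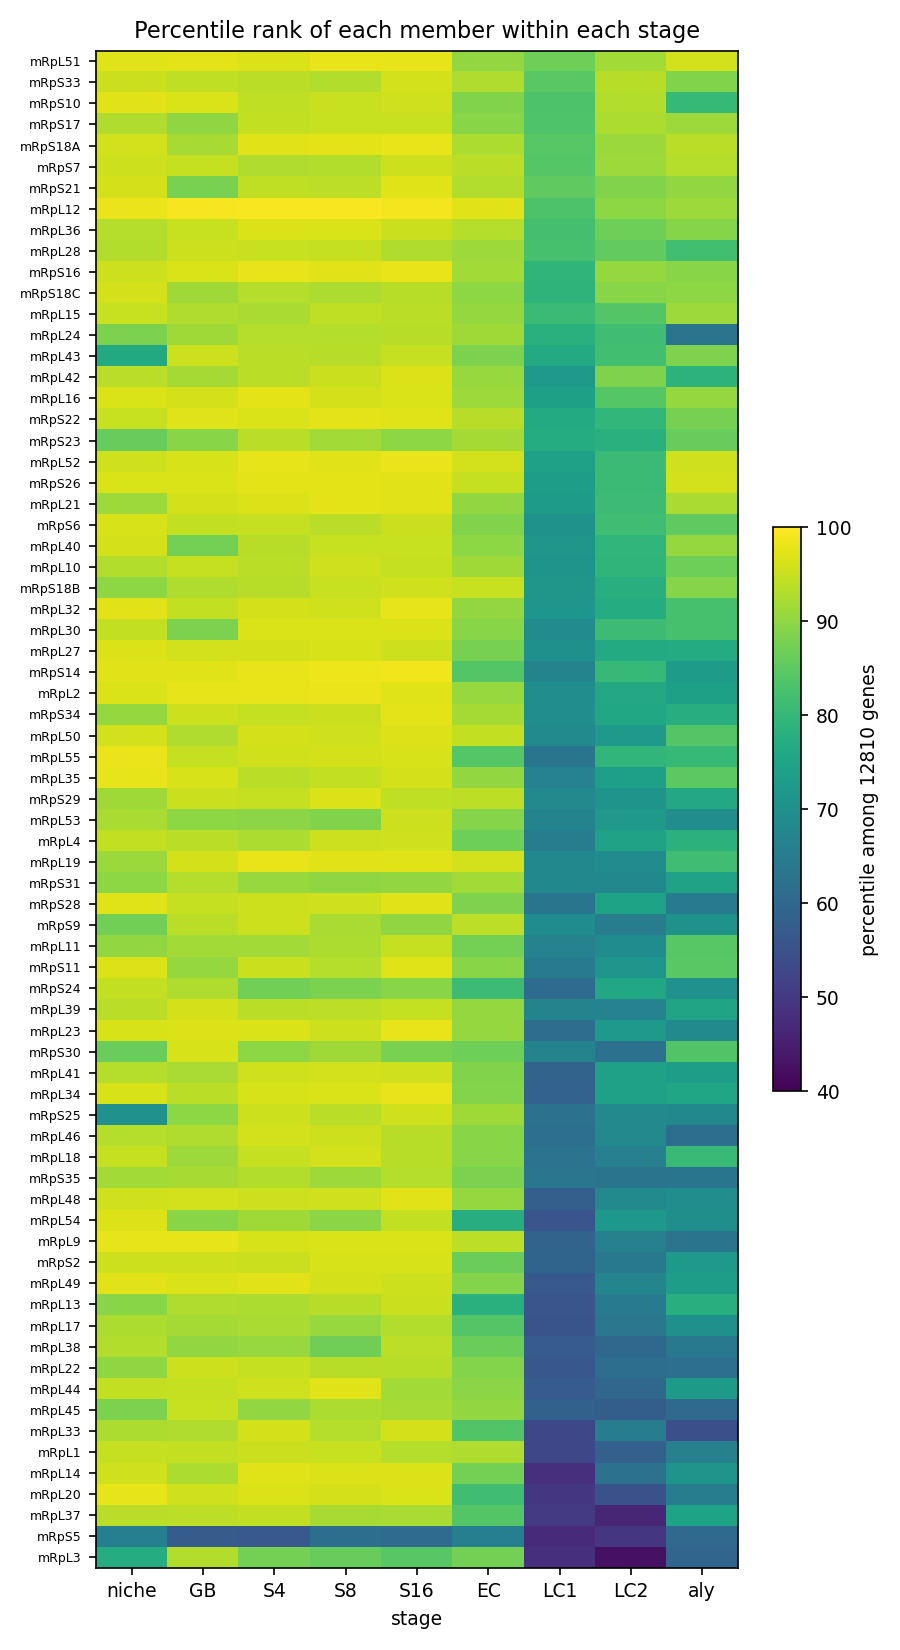
Percentile rank among all 12810 genes (colour) of each of the 72 members (rows) in the 9 stages (columns), with the members sorted by their rank in late spermatocytes. In LC1 the members lie between percentiles 47.4 and 86.8, while the median member lies at 94.5 or above in each stage before EC.

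Over the 9 stages, the members whose percentile ranks were least like the members' median profile were mRpL43, with a Pearson's r of 0.626, mRpS17 with 0.6935, mRpS5 with 0.738 and mRpS10 with 0.748. These values describe 9 stages and carry no test. mRpL43 had 172 and 233 RPKM in the GB libraries, against 41.4 and 54.4 RPKM in the niche libraries. mRpS17 and mRpS10 reached percentiles 92.5 and 93.2 in LC2. With mRpL51, mRpS7, mRpS16, mRpS18A and mRpS33 they made up the 7 members at or above percentile 90 there.

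In early spermatocytes against spermatogonia (S4, S8 and S16), 33 members fell, 1 rose and 38 did not pass the test. The test was limma on log2(RPKM + 1) of single libraries, called at a Benjamini-Hochberg adjusted p under 0.05 over 12478 genes with at least 8 RPKM on the higher side. Of all genes tested, 7.06% were called lower and 22.1% higher. The median log2 difference was -0.70 for the members and 0.48 for all genes tested, and 70 of 72 members lay below 0. By subunit symbol, 21 of 46 large and 12 of 26 small subunit members fell. EC libraries lay wholly below the spermatogonial ones for 37 members and wholly above for 1, while 6.3% and 31.1% of all genes tested did so.

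mRpS14, whose bacterial relative lies in the head of the small subunit, had the most negative difference. It had 101, 60.01 and 105 RPKM in the EC libraries, against 210 and 400 in S4, 196 and 308 in S8 and 544 in S16. All EC values lay below all spermatogonial values (log2 difference -1.82 ± 0.31 SE, limma adjusted p = 0.000273). mRpL20, whose bacterial relative acts early in assembly of the large subunit, had 55.0, 86.4 and 95.7 RPKM in the EC libraries, against 207 and 310 in S4, 178 and 226 in S8 and 340 in S16. It fell by 1.66 ± 0.39 on the log2 scale with no overlap (limma adjusted p = 0.00306). mRpL13, mRpL55 and mRpL14 also fell, with log2 differences of -1.37, -1.33 and -1.25. The call of mRpL14 was lost when S4 b, S8 b, S16 or any EC library was left out (limma adjusted p between 0.0546 and 0.104), with quantile normalization (0.0851), without S4 (0.0643) and without S4 and S8 (0.0872). mRpL33 had a log2 difference of -1.29 ± 0.61 that did not pass (limma adjusted p = 0.107), but passed with total reads (0.0253).

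mRpS5 was the member that rose. It had 36.7, 42.8 and 39.0 RPKM in the EC libraries, against 5.93 and 15.8 in S4, 22.8 and 12.7 in S8 and 12.5 in S16. The libraries did not overlap, and the log2 difference was 1.54 ± 0.55 (limma adjusted p = 0.0378). The call was lost without S4 a, S8 b or any EC library, and with libraries scaled to total reads (limma adjusted p = 0.163). mRpL3 had a difference of 0.12, and mRpS31, mRpS18B, mRpS9 and mRpS7 had differences between -0.17 and -0.0039, none of which passed. With libraries scaled to total reads that of mRpL3 was -0.43, and with quantile normalization the other 4 lay between 0.035 and 0.16. The call of mRpS5 was also lost with quantile normalization, and without S4 or without S4 and S8 (limma adjusted p = 0.342, 0.114 and 0.216).

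The count of members that fell in EC was 21 without S4 b, 19 without S8 b, 20 without S16, 16 without EC a and 20 without EC b, and 64 with libraries scaled to total reads. Over all genes tested, 881 were called lower as given, 821, 674, 824, 537 and 557 in these 5 fits in the same order, and 1776 with total reads. Without S4, which holds the library with the highest gut markers, 31 members fell, and without S4 and S8 35 fell, of which 30 and 29 were among the 33, while 756 and 610 of all genes tested were called lower. The median member stood at 16.1% of the limit of 1 read per base in EC, against 39.6% in S4, 53.0% in S8 and 26.7% in S16, and 46 members and 1091 of all genes tested fell after correction for that limit. With percentile ranks in place of log2 RPKM, 16 members and 1513 of all genes tested were called lower. Haemocyte and fat body markers (6 genes) summed to 18.4 to 44.8 RPKM in the EC libraries, against 0 to 2.70 RPKM in the spermatogonial ones. Of these 6, the fat body genes Lsp2 and Fbp1 rose, to 16.1 and 9.36 RPKM in EC, and the others were not called. Hml and Pxn, haemocyte genes, had 1.15 and 0.501 RPKM in EC, and Yp2 had 0, against 1.30 RPKM in S8. Markers of the hub (4 genes), the somatic stem cell niche, summed to 3.68 to 7.67 RPKM in EC, against 0 to 1.70 RPKM. None of the 4 was called. Of these, hh had a log2 difference of 1.04 (limma adjusted p = 0.00812). At 2.70 RPKM in EC it lay under the minimum of 8 RPKM for a call. The part of these markers was not tested.

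In late spermatocytes (LC1 and LC2) against early spermatocytes, 47 members fell, none rose and 25 did not pass. Of all genes tested, 20.1% were called lower and 23.1% higher. By limma, 52 of the 72 members had an unadjusted p under 0.05 in either direction. The share of all genes tested at that unadjusted threshold is not given, so the count has no background beside it. The median log2 difference was -0.99 for the members and 0.12 for all genes tested, and 62 of 72 members lay below 0. Late libraries lay wholly below the EC ones for 40 members, against 23.2% of all genes tested, and wholly above for none, against 28.7%. By subunit symbol, 34 of 46 large and 13 of 26 small subunit members fell, with medians of -1.07 and -0.84, and the difference between subunits was not tested.

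mRpL3, whose bacterial relative reaches towards the site of peptide bond formation, had the most negative difference. It had 11.6, 32.6 and 12.2 RPKM in LC1 and 13.0, 4.68 and 10.4 in LC2, against 97.7, 92.8 and 127 in EC. Every late library lay below every EC library (log2 difference -2.93 ± 0.39, limma adjusted p = 1.335e-05). mRpL1, whose bacterial relative forms the stalk where transfer RNA leaves, had 15.6, 43.3 and 16.9 RPKM in LC1 and 44.5, 13.8 and 25.2 in LC2, against 133, 148.3 and 160 in EC. It fell by 2.59 ± 0.36 on the log2 scale with no overlap (limma adjusted p = 2.207e-05). mRpL37 had 11.2, 35.5 and 16.8 RPKM in LC1 and 17.1, 5.89 and 13.8 in LC2, against 76.9, 90.02 and 101 in EC. LC1 b was the highest late library for all 3 of mRpL3, mRpL37 and mRpL20. mRpL37, mRpL14, mRpL9 and mRpL45 also fell, with log2 differences of -2.45, -2.22, -2.11 and -2.03. All 6 genes with the most negative differences carry large subunit symbols, and their calls held under each of the alternatives tried.

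At the other end, 5 of the 6 members with the most positive differences carry small subunit symbols. mRpS10, in the head of the small subunit, had 144, 105 and 115 RPKM in LC1 and 160, 310 and 331 in LC2, against 89.6, 110 and 137 in EC. The libraries overlapped, LC2 b and LC2 c stood highest, and the log2 difference of 0.55 ± 0.27 did not pass (limma adjusted p = 0.0986). mRpL51, mRpS17, mRpS33, mRpS18A and mRpS18C had differences of 0.51, 0.48, 0.23, 0.18 and 0.13 that did not pass either. All 6 of these differences were negative with quantile normalization, where the median of all genes tested was -0.31 and mRpS18A and mRpS18C were called lower (limma adjusted p = 0.0237 and 0.0013). In that setting 67 members and 4024 of all genes tested were called lower, against 47 and 2503 as given, and with percentile ranks 66 and 3888.

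With LC1 and LC2 weighted equally 2 members were called higher in late spermatocytes, and 3 after each value was corrected for the limit of 1 read per base, while leaving out LC2 a gave 2, and S4 a, S4 b, EC c or LC1 b gave 1. Over all genes tested the counts called higher were 2923 with equal weights and 3026 with the correction, against 2888 as given. Hub markers summed to 20.7 to 76.5 RPKM in the late libraries, against 3.68 to 7.67 RPKM in EC, with none of the 4 at 0 in late libraries and up to 2 at 0 in EC. Of these 4, os and esg rose, by 3.89 and 2.57 on the log2 scale. Markers of cyst cells (4 genes), the somatic cells around the germ cells, summed to 53.0 to 118 RPKM in the late libraries, against 21.4 to 50.6 RPKM in EC, with none at 0 in either. Of these, eya and so rose, by 1.76 and 2.48, zfh1 did not pass, and tj went the other way, with 1.21 RPKM in LC1 and 0.458 RPKM in LC2, against 7.88 RPKM in EC, which lies under the minimum of 8 RPKM for a call. Muscle sheath markers summed to 8.79 to 26.6 RPKM in the late libraries, against 2.03 to 3.29 RPKM in EC. Of these only Mlc2 was called, with 13.0 RPKM in LC1 and 10.8 RPKM in LC2, against 1.85 RPKM in EC. Mhc had a log2 difference of 1.44 (limma adjusted p = 0.00411). It lay under the minimum for a call, with 4.25 RPKM in LC1 and 0.506 RPKM in LC2, against 0.130 RPKM in EC. wupA went the other way, with 0.333 RPKM in LC1 and 0.0829 RPKM in LC2, against 0.520 RPKM in EC. The part of these markers in the results was not tested.

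**Figure D3:**
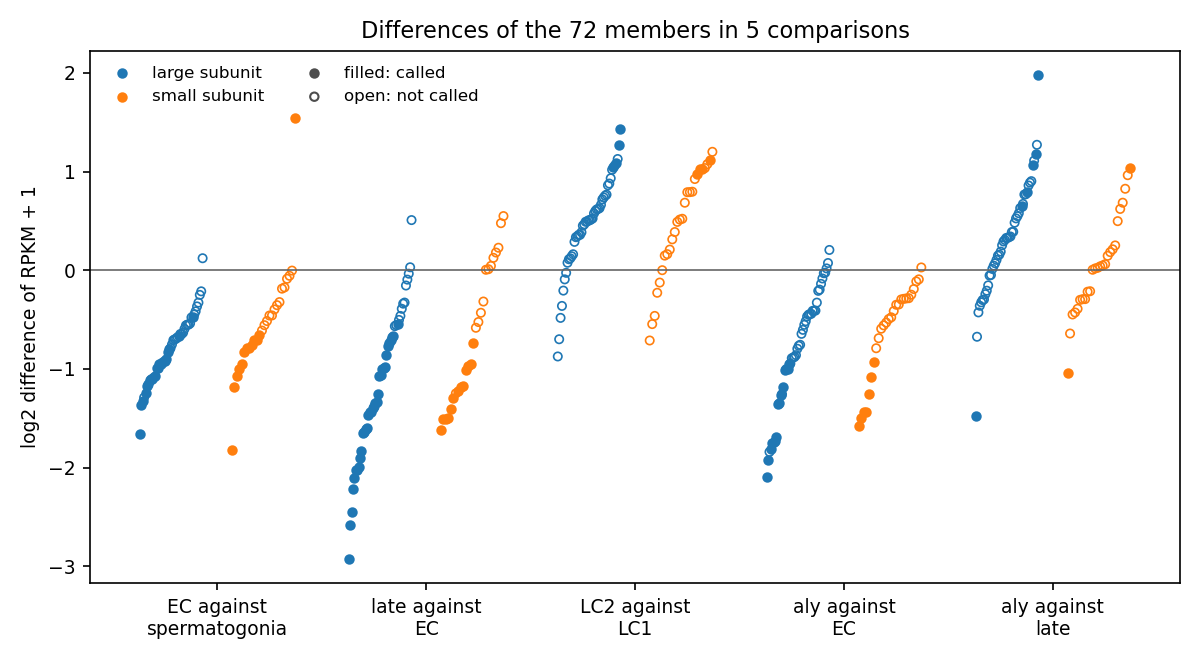
Limma log2 differences of RPKM + 1 for the 72 members in 5 comparisons, for large subunit (blue) and small subunit (orange) symbols, with filled points for calls. EC against spermatogonia and late against EC lie mostly below 0, with 33 and 47 members called lower, while LC2 against LC1 lies mostly above 0, with 8 called higher.

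Set directly against spermatogonia, the median member of late spermatocytes had 30.1% of the spermatogonial level, with quartiles at 21.4 and 45.4%. mRpL20 had the lowest share with 8.36%, and mRpL14 and mRpL37 had 9.7 and 10.1%. Of the 72 members, 16 were under 20% and 17 at or above 50%. mRpS5, mRpS33 and mRpS7 had the highest shares, with 119, 95.2 and 90.8%. No such share is given for all genes, so these values have no background beside them. They are relative to the other genes, whose median moved the other way. That median was 2.41 to 5.54 RPKM over the spermatogonial stages, but 21.1 RPKM for LC1 and 15.6 RPKM for LC2. A loss of RNA per cell cannot be read from these shares. The comparisons of EC against spermatogonia and of late spermatocytes against EC share the EC libraries, so their values are given side by side only. mRpS14 had -1.82 in EC against spermatogonia, which passed, and -0.32 in late against EC, which did not. mRpL55 had -1.33, which passed, and -0.50, which did not. mRpL20 had -1.66 and -1.99, which both passed. mRpL3 had 0.12, which did not pass, and -2.93, which passed.

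Between the late sets, 8 members were higher in LC2 than in LC1, none was lower and 64 did not pass. Of all genes tested, 1.14% were called higher and 3.37% lower. By limma, 27 of the 72 members had an unadjusted p under 0.05 in either direction, again with no share of all genes given. The median log2 difference was 0.51 for the members and -0.067 for all genes tested. LC2 libraries lay wholly above the LC1 ones for 34 members, against 13.3% of all genes tested, and wholly below for none, against 21.4%. The 8 were mRpL16, mRpL42, mRpL54, mRpL55, mRpS6, mRpS16, mRpS17 and mRpS18C. Haemocyte and fat body markers split in this comparison. Their sum was 94.7 to 174 RPKM in the LC2 libraries, against 19.2 to 44.4 RPKM in the LC1 libraries, with no overlap and with up to 2 of the 6 at 0 in either set. Lsp2 and Fbp1, fat body genes, rose by 2.54 and 3.12 on the log2 scale, and the other 4 were not called. The haemocyte genes Hml and Pxn went the other way, with 6.425 and 4.975 RPKM in LC1, against 1.455 and 3.305 RPKM in LC2. Both lay under the minimum of 8 RPKM for a call. The part of these markers in the results was not tested.

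mRpL42 had 108, 214 and 264 RPKM in the LC2 libraries, against 85.2, 49.5 and 71.2 in the LC1 libraries. All LC2 values were higher, with LC2 a the nearest to LC1 (log2 difference 1.44 ± 0.35, limma adjusted p = 0.0281). mRpL55 had 83.2, 113 and 130 RPKM in LC2, against 46.2, 40.1 and 45.6 in LC1. It rose by 1.27 ± 0.26 on the log2 scale with no overlap (limma adjusted p = 0.0113). mRpS16 had 150, 252 and 274 RPKM in LC2, against 117, 89.9 and 94.4 in LC1. It rose by 1.12 and mRpL54 by 1.08 on the log2 scale (limma adjusted p = 0.0432 and 0.0454). mRpS14 and mRpL34 had differences of 1.2 and 1.13 that did not pass. mRpS14 passed with total reads and with quantile normalization (limma adjusted p = 0.0239 and 0.0257), and mRpL34 without LC2 a (0.0473). mRpL3, mRpS30, mRpL37, mRpS35, mRpL45 and mRpS9 had the most negative differences, between -0.87 and -0.46, and none passed.

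These 8 calls rest on few libraries. With LC2 b and LC2 c taken as 1 sample, none of the 72 was called higher, against 40 of all genes tested. With LC2 a and b as 1 sample 7 were called higher, and with LC2 a and c 6, of which 5 in each case were among the 8. Leaving out LC2 c gave 0, LC1 b, LC1 c or LC2 b gave 1, LC1 a gave 5, EC a, EC b, *aly* a or *aly* b gave 4, and LC2 a gave 13 higher and 2 lower. A pseudocount of 0.25 gave 4, scaling to total reads 14 and quantile normalization 23. The count of all genes called higher moved too. It was 142 as given, 42 without LC2 c, 43, 28 and 35 without LC1 b, LC1 c and LC2 b, 59 without LC1 a and 419 without LC2 a. It was 84 with a pseudocount of 0.25, 394 with total reads and 563 with quantile normalization.

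The difference between the late sets ran with gene length. The length behind the RPKM values was 282 to 1823 bases for the members, with a median of 746, against 1733 for all genes. Across the 72 members, which are not independent replicates, the log2 difference of LC2 against LC1 had a Pearson's r of -0.731 with log2 length, against -0.533 over 12478 genes. The 24 members of 282 to 677 bases had a median of 0.84 and 5 calls. The 24 of 680 to 857 bases had a median of 0.55 and 3 calls, and the 24 of 898 to 1823 bases had a median of -0.013 and 0 calls.

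For late spermatocytes against EC, r with length was -0.39 over the members and -0.24 over all genes tested. Of the 24 longest members 21 fell, with a median of -1.42, and of the 24 shortest 12 fell, with a median of -0.57. For EC against spermatogonia the sign was the other way, with r = 0.525 over the members and 0.184 over all genes tested, and 7 of the 24 longest and 15 of the 24 shortest fell. Reverse transcription had started from poly-dT, and the part of length in these results was not tested.

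**Figure D4:**
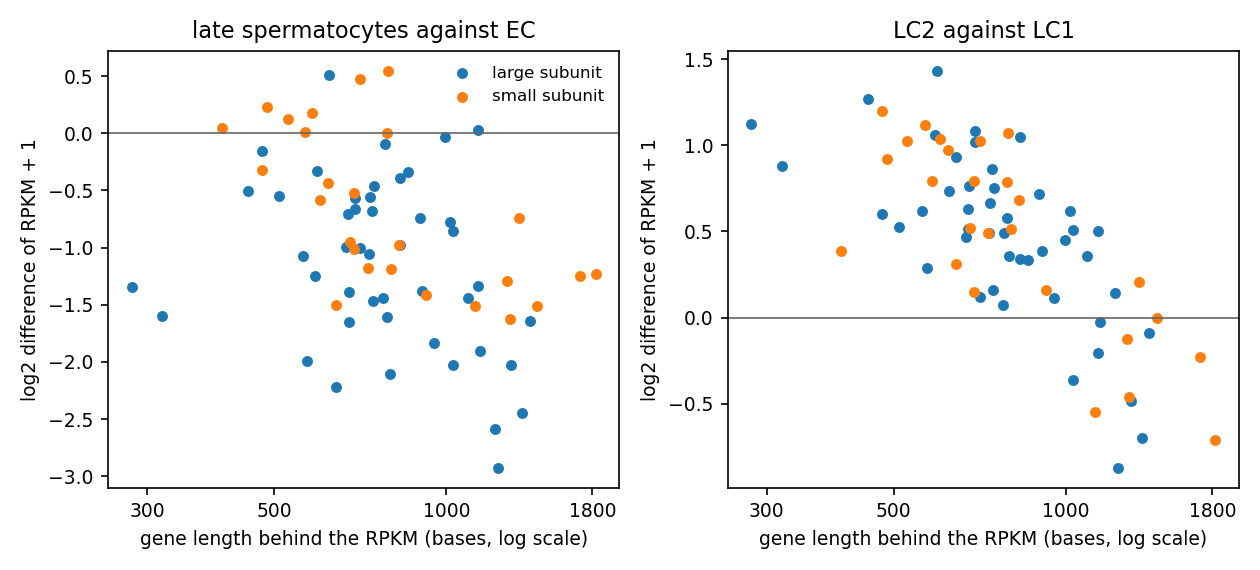
Limma log2 difference of RPKM + 1 against gene length in bases on a log axis for the 72 members, for late spermatocytes against EC and for LC2 against LC1, with large subunit symbols in blue and small subunit symbols in orange. For LC2 against LC1 the differences decline with length, at a Pearson's r of -0.731.

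In arrested *aly* spermatocytes against EC, 21 members fell, none rose and 51 did not pass. Of all genes tested, 7.1% were called lower and 8.44% higher. By limma, 29 of the 72 members had an unadjusted p under 0.05 in either direction, with no share of all genes given here either. The median log2 difference was -0.60 for the members and 0.16 for all genes tested. The *aly* libraries lay wholly below the EC ones for 58 members, against 25.2% of all genes tested, and wholly above for 1, against 34.2%. By subunit symbol, 14 of 46 large and 7 of 26 small subunit members fell.

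mRpL9 had 36.4 and 37.9 RPKM in the *aly* libraries, against 153, 158 and 176 in the EC libraries. Both mutant values lay far below every EC value (log2 difference -2.10 ± 0.41, limma adjusted p = 0.00182). mRpL45, whose mammalian relative anchors the ribosome to the inner membrane, had 35.05 and 29.2 RPKM in *aly*, against 109, 122 and 143 in EC. It fell by 1.92 ± 0.43 on the log2 scale (limma adjusted p = 0.00471), a call lost without *aly* b (limma adjusted p = 0.0580). mRpL24, whose bacterial relative starts assembly of the large subunit, had 37.1 and 36.9 RPKM in *aly*, against 117, 155 and 130 in EC. It fell by 1.82 ± 0.36 with no overlap (limma adjusted p = 0.00202). mRpL3 and mRpL46 fell by 1.75 and 1.74, and the call of mRpL3 was lost without EC c or either *aly* library. mRpL33 had a difference of -1.84 ± 0.76 that did not pass (limma adjusted p = 0.102), but passed with quantile normalization (0.0377).

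mRpL51 was the member whose *aly* libraries both lay above EC, with 132 and 154 RPKM in *aly*, against 129, 113 and 131 in EC, and its difference of 0.21 did not pass. mRpL13, mRpS17, mRpL21, mRpL43 and mRpL40 had differences between -0.031 and 0.073, and with libraries scaled to total reads or quantile normalization those of mRpL40 and mRpL43 were above 0. The count that fell in *aly* was 12 without EC c, 5 without *aly* a and 7 without *aly* b, while 653, 259 and 399 of all genes tested were called lower there, against 886 as given. With quantile normalization 33 members and 1503 of all genes tested were lower, and mRpL51 was higher (log2 difference 0.66, limma adjusted p = 0.0127). Hub markers summed to 20.6 and 13.3 RPKM in *aly*, against 3.68 to 7.67 RPKM in EC. Muscle sheath markers summed to 20.6 and 9.95 RPKM, against 2.03 to 3.29 RPKM. No single marker of either kind was called in this comparison. Mhc, of the muscle sheath, and esg, of the hub, had log2 differences of 2.615 and 2.09 (limma adjusted p = 0.00116 and 0.0365). At 6.27 and 7.70 RPKM in *aly*, both lay under the minimum of 8 RPKM for a call. The part of these markers was not tested.

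In *aly* against late spermatocytes, 6 members rose, 2 fell and 64 did not pass. Of all genes tested, 13.3% were called higher and 17.6% lower. The median log2 difference was 0.19 for the members and 0.059 for all genes tested. The *aly* libraries lay wholly above the late ones for 12 members and wholly below for 3, against 29.7 and 27.4% of all genes tested. With libraries scaled to total reads 14 members were higher and 2 lower, with quantile normalization 43 and 2, with percentile ranks 37 and 1, and with correction for the limit of 1 read per base 13 and 2. Over all genes tested, 1883, 3536, 3332 and 1937 were called higher in these 4 settings, against 1664 as given. The median of all genes tested was 0.23 with total reads and 0.35 with quantile normalization.

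mRpL37 had the most positive difference. It had 65.3 and 62.3 RPKM in *aly*, against 11.2, 35.5 and 16.8 in LC1 and 17.1, 5.89 and 13.8 in LC2. Both *aly* values lay above all late values (log2 difference 1.98 ± 0.42, limma adjusted p = 0.00156), and the call held under each of the alternatives tried. mRpL3, mRpL13, mRpS30, mRpL11 and mRpL35 also rose, by 1.18, 1.06, 1.04, 0.79 and 0.65. Of the 6 calls, only that of mRpL37 was kept without *aly* a or without *aly* b. The *aly* values of mRpL3, 31.3 and 29.8 RPKM, lay below the 32.6 RPKM of LC1 b, and its call was lost without any 1 of 13 libraries and with LC2 b and c taken as 1 sample. The calls of mRpL13 and mRpS30 were lost without either *aly* library (limma adjusted p between 0.128 and 0.181), and that of mRpS30 also without EC b, LC1 a, LC1 c or LC2 c. mRpL14 and mRpL20 had differences of 1.27 and 1.11 that did not pass. Both passed with quantile normalization (limma adjusted p = 0.0042 and 0.0291) and with libraries scaled to total reads (0.0335 and 0.0260). They also passed without LC1 b (limma adjusted p = 0.0182 and 0.00517). The call of mRpL3 was also lost with a pseudocount of 0.25 (limma adjusted p = 0.0547).

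mRpL24 was lower in *aly* than in any wild-type spermatocyte library. It had 37.1 and 36.9 RPKM in *aly*, against 93.7, 94.0 and 98.7 in LC1 and 105, 171 and 97.4 in LC2. It fell by 1.48 ± 0.32 on the log2 scale (limma adjusted p = 0.00179), a call that held under each of the alternatives tried. In late spermatocytes against EC its difference was -0.34, which did not pass. mRpS10 had 67.7 and 90.3 RPKM in *aly*, against 144, 105 and 115 in LC1 and 160, 310 and 331 in LC2. It fell by 1.04 ± 0.31 with no overlap (limma adjusted p = 0.0135), a call lost without *aly* a (limma adjusted p = 0.171). mRpL28, mRpS33, mRpS17 and mRpS28 had differences between -0.67 and -0.43 that did not pass, and with quantile normalization those of mRpS33 and mRpS17 were 0.080 and 0.38. Leaving out *aly* a or *aly* b gave 1 member higher, LC1 a or LC1 c 2, EC b or LC2 b 3, LC2 a 10, GB a or GB b 11 and LC1 b 13, while all genes called higher came to 736 and 748 without *aly* a and *aly* b and to 1334 to 1997 without the other libraries named. Haemocyte and fat body markers split in *aly*. The haemocyte genes Hml and Pxn and the yolk protein gene Yp2 rose against late spermatocytes, by 2.60, 2.95 and 3.36 on the log2 scale, while the fat body genes Lsp2 and Fbp1 fell, with log2 differences of -3.17 and -2.495. In *aly* against EC, which shares the *aly* libraries, the differences of these 5 genes were 3.90, 4.71, 3.42, -2.22 and -2.69, and each passed. Yp1, at 7.84 RPKM in *aly*, lay under the minimum for a call. The sum over the 6 was 82.7 and 84.9 RPKM in *aly*, against 94.7 to 174 RPKM in LC2, 19.2 to 44.4 RPKM in LC1 and 18.4 to 44.8 RPKM in EC, with none of the 6 at 0 in *aly*. Cyst cell markers summed to 42.6 and 34.8 RPKM in *aly*, against 53.0 to 118 RPKM in the late libraries. The part of these markers was not tested.

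Steps before EC are given as values, with no test. The median log2 ratio of stage values over the members was -0.67 in GB against niche, with 57 members lower and 15 higher. It was 0.18 in S4 against GB, with 53 higher and 19 lower, and -0.17 in S8 against S4, with 13 higher and 59 lower. In S16 against S8 it was 0.68, with 66 higher and 6 lower. Percentile ranks moved little, with median changes of -0.047, 0.61, 0.066 and 0.30 at these 4 steps. The median member had 284.1 and 292 RPKM in the niche libraries, and 163 and 207 RPKM in those of GB. S4 libraries had 159 and 256 RPKM, S8 libraries 146.9 and 223 RPKM, and the S16 library 287 RPKM, so that GB, S4 and S8 overlapped. The limit of 1 read per base was 701 and 884 RPKM for the niche libraries, 468 and 526 for GB, 350 and 752 for S4, 270 and 434 for S8, and 1075 for S16. In each of these 4 pairs the library with the higher limit had the higher median member, and the part of the limit was not tested. mRpL54 had the most negative ratio in GB against niche, -1.82, and mRpL43 the most positive, 2.05.

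Members were spread over the genome, with 11 on X, 12 on 2L, 12 on 2R, 15 on 3L and 20 on 3R in the Ensembl annotation of build BDGP6.54, where all 70 matched members were protein coding. mRpL3 lies on X at 15761248 to 15762663, mRpL37 on 3R at 10782563 to 10784092 and mRpL24 on 2L at 4944256 to 4945361. In late spermatocytes against EC, 8 of 11 X-linked members fell, with a median of -1.60, and 38 of 59 autosomal members fell, with a median of -0.97, a difference that was not tested. Exon bases are shared with another gene by 41 members. Where the other gene lies on the opposite strand, reads cannot be told apart unless counting used strand, which is not stated. On the same strand, mRpL53 shares all of its exon bases with CG33155, mRpL13 shares 35.2% with CG10602 and mRpS14 shares 3.76% with CG32533, and strand would not separate those reads. Of the 8 members that share over 20%, 6 do so on the opposite strand. Among them mRpS24 shares 55.3% with TBC1d7, mRpS21 shares 48% with CG8870, mRpS14 shares 32% with Naa15-16 and mRpS9 shares 25.1% with ArgRS-m. Values of these members are uncertain. The shares are of exon bases in this annotation, which can differ from the gene models counted. The length behind the RPKM was 476 bases for mRpS14, against 797 exon bases here. For mRpS21 it was 405, against 475 exon bases.

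Other genes of mitochondrial translation and its setting are given for late spermatocytes against EC, where 20.1% of all genes tested were called lower and 23.1% higher. tko and bonsai, small subunit proteins with other names, are not among the 72. bonsai fell by 1.62 on the log2 scale (limma adjusted p = 7.981e-06), and tko had -0.71, which did not pass. Of 8 mitochondrial translation factors, 2 fell, 1 rose and 5 did not pass, which is near the share of all genes, with a median of -0.69, against 0.12 for all genes tested. EfTuM, the elongation factor that brings transfer RNA to the ribosome, fell by 2.65, and CG12413, the initiation factor mIF2, fell by 2.15. CG12736, a second elongation factor of the EfTuM kind, rose by 1.48. Of 14 genes for mitochondrial DNA and RNA upkeep, 7 fell and 1 rose, which was mtSSB, a single-stranded DNA binding protein, by 2.39. Among those that fell were bsf, an RNA-binding protein, by 2.64 and tam, the catalytic subunit of the mitochondrial DNA polymerase, by 2.02.

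Of 18 general respiratory chain genes, 7 fell and 11 did not pass in late against EC, with a median of -0.56. SdhB, a subunit of complex II, fell by 2.56, and ATPsyn-beta, the catalytic subunit of ATP synthase, fell by 2.11. Of 88 cytoplasmic ribosomal protein genes, 84 fell and 3 rose, with a median of -1.15. In EC against spermatogonia 3 of these 88 fell, where 7.06% of all genes tested were called lower, and their median was 0.13, against 0.48 for all genes tested. Of 6 regulators of mitochondrial gene expression 3 fell, namely Spargel, ewg and Dref.

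Of 9 general import genes found, 2 rose in late against EC, Tim13 and CG11779, and 7 did not pass, with a median of 0.44. That count is near the 23.1% of all genes called higher. Tim13 was listed at 0 in all 5 stages before EC, unlike the other 8. Of 7 genes listed as testis paralogues of import genes 6 rose, with a median of 4.81 over the 7. Tim9b did not pass, and its levels go against that name, with 49.9, 53.3 and 69.6 RPKM in S4, S8 and S16, where the other 6 had at most 0.345 RPKM. tomboy20, the paralogue of the receptor Tom20, had 283 RPKM in LC1 and 485 RPKM in LC2, against 21.8 RPKM in EC. In *aly* against late spermatocytes all but Tim9b fell, where 17.6% of all genes tested were called lower, with a median of -4.23 over the 7, where the members' median was 0.19.

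**Figure D5:**
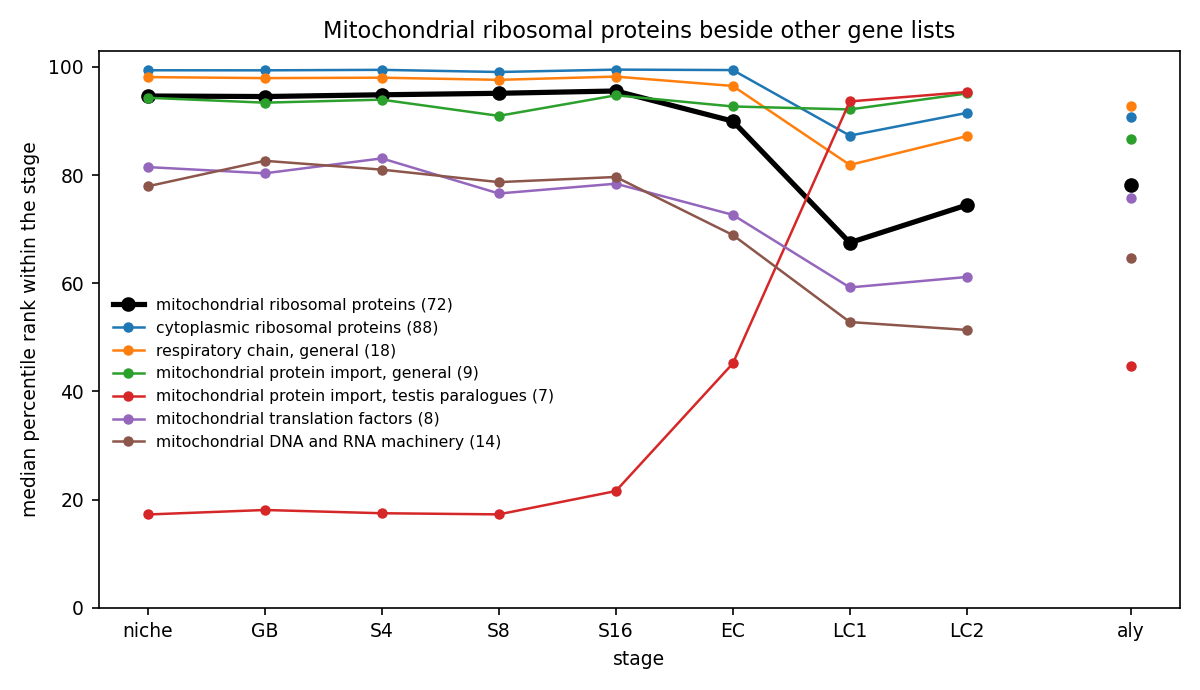
Median percentile rank within each stage of the 72 mitochondrial ribosomal protein genes and of other gene lists. The members' median is 67.5 in LC1, against 89.99 in EC, while that of the genes listed as testis import paralogues, Tim9b included, is 93.6 in LC1, against 45.2 in EC.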

How the data were processed

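The authors deposited 1 table of RPKM values, 1 per gene and stage, per the file headers. Its title writes cRPKM, with no meaning given for the c. Per the labels' protocols, picked cysts were permeabilized, messenger RNA was reverse transcribed from poly-dT, and cDNA was tailed and amplified with universal primers. Bowtie 0.12.7 and edgeR appear in the submitters' processing notes without a stated use. Genome build, duplicate handling and strand of counting are not stated in the labels or headers.

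Each stage value is a mean over libraries of reads divided by gene length and library size. Since reads are whole numbers, the reads of single libraries were solved for from the means. Starting values for the worth of 1 read in each library, found by an earlier search of this table, were refined on repeated values, and all other numbers follow from the table. LC2 needed 3 libraries, because at most 9.16% of its 12397 genes above 0 could be solved with 2, while 2 are labelled. No recovered library could be tied to a numbered sample, and they are lettered by effective library size, largest first. Reads of amplified cDNA are not independent molecules, and read counts cover counting error only.

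The limma fit took log2(RPKM + 1) of 20 libraries with 9 group means and a variance trend, over 12478 genes with at least 1 RPKM in 2 libraries (residual degrees of freedom 11, prior 3.90). A fold on this scale understates the change of low genes. S4, S8 and S16 were weighted 2, 2 and 1, and LC1 and LC2 3 and 2. The single S16 library was taken to vary as the other groups do. Tests are two-sided, and the fit was tested on simulated data, with the outcome not given here. Calls need a Benjamini-Hochberg adjusted p under 0.05 and at least 8 RPKM on the higher side. Members, gene lists and tests were chosen with earlier results of these data known. Named were the 5 members with the highest and the 5 with the lowest mean of stages, the 6 most positive and 6 most negative per comparison, and the 4 least like the median profile. Other members were named after their values were seen. Coordinates are from Ensembl BDGP6.54, where 70 members matched. Alternatives were other scalings, pseudocounts, filters and weights, and each library left out. R 4.3.3, limma 3.58.1, Python 3.11.15, numpy 2.4.6, pandas 2.3.3, scipy 1.17.1 and matplotlib 3.10.9 were used.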

Additional observations from a re-analysis of the deposited data

How the results depend on the processing

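No paired analysis was possible because the stage columns carry no replicate numbers. The members' median of stage values kept its sign in the 5 comparisons under the alternatives tried. In EC against spermatogonia, members called higher came to 0 with libraries scaled to total reads, quantile normalization, percentile ranks, S4 left out, or S4 and S8 left out, and to 0 to 1 with 1 library left out. Members called lower came to 64 with total reads, 16 with percentile ranks and 16 to 39 with 1 library left out. All genes called lower came to 881 as deposited, 1776 with total reads, 1513 with percentile ranks and 537 without EC a. The median of all genes tested was 0.48 as deposited, 0.20 with total reads and -0.13 with quantile normalization. The members' median of stage values was -2.48 with the median gene set equal and -1.21 with S4 and S8 left out, against -0.76 as deposited. Differences that changed sign were mRpL3 at -0.43 with total reads, mRpS18B at 0.16, mRpS31 at 0.076, mRpS7 at 0.043 and mRpS9 at 0.035 with quantile normalization, mRpS31 at 0.012 and mRpS9 at 0.13 without S4, and mRpS9 at 0.17 without S4 and S8. With 1 library left out, mRpL3 ran from -0.017 to 0.21, mRpS18B from -0.36 to 0.25, mRpS31 from -0.082 to 0.074 and mRpS9 from -0.23 to 0.018. In late against EC, members called higher came to 2 with stages weighted equally, 3 with the correction for the limit of 1 read per base and 0 to 2 with 1 library left out. With LC2 a and b, or LC2 a and c, taken as 1 sample it was 1. Those called lower came to 40 to 49 with 1 library left out, 67 with quantile normalization and 66 with percentile ranks. As deposited, with total reads and with quantile normalization, the median of all genes tested was 0.12, 0.056 and -0.31 in late against EC, 0.16, 0.23 and -0.099 in *aly* against EC, and 0.059, 0.23 and 0.35 in *aly* against late. The median of stage values was -1.37 with the median gene set equal and -1.76 with quantile normalization. With quantile normalization mRpL51 was at -0.085, mRpS10 at -0.047, mRpS17 at -0.15, mRpS18A at -0.49, mRpS18C at -0.60 and mRpS33 at -0.44. In LC2 against LC1, members called higher came to 14 with total reads, 23 with quantile normalization, 4 with a pseudocount of 0.25, 16 with percentile ranks, 0 with LC2 b and c taken as 1 sample and 0 to 13 with 1 library left out, and those called lower to 0 to 2. The median of stage values was 0.93 with the median gene set equal. In *aly* against EC, quantile normalization gave 1 higher and 33 lower, and 1 library left out gave 5 to 22 lower. The median of stage values was -0.88 with the median gene set equal and -0.88 with quantile normalization. mRpL40 was at 0.079, 0.13 and 0.29 and mRpL43 at 0.084, 0.063 and 0.26 with total reads, quantile normalization and the limit correction. With 1 library left out, mRpL13 ran from -0.013 to 0.12, mRpL21 from -0.027 to 0.053, mRpL40 from -0.19 to 0.067, mRpL43 from -0.12 to 0.071 and mRpS17 from -0.11 to 0.19. In *aly* against late, members called higher came to 14 with total reads, 43 with quantile normalization, 37 with percentile ranks, 13 with the limit correction and 1 to 13 with 1 library left out, and those called lower to 1 with percentile ranks and 1 to 3 with 1 library left out. The median of stage values was 0.69 with quantile normalization, and mRpS17 was at 0.38 and mRpS33 at 0.080. Among genes with at least 1 RPKM in 2 stages the members' median percentile was 64.8 in LC1, 72.3 in LC2 and 76.3 in *aly*. Percentile ranks, the limit correction, LC2 libraries taken as 1 sample and leaving out S4 or S8 were chosen after seeing the data. The cause was not tested for any of these. Of the results that changed, the calls in LC2 against LC1 and in *aly* rest on sets of 2 or 3 libraries, and the shallowest library held 809435 reads.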
